A study of Homo sapiens with 9 samples.

Results

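Genes of the hypoxia response and of glycolysis were examined in HCT116 cells, a human colorectal carcinoma line, treated with activin A and then with hepatocyte growth factor (HGF). The group held 10 genes chosen by name, SLC2A1, HK2, PFKFB4, PGK1, LDHA, CA9, VEGFA, ADM, BNIP3 and NDRG1, out of 33861 genes in the deposited table. These genes and the lists of other genes below were chosen with earlier results of these data known. Shares of changed genes among them are therefore no independent test. All 10 passed the filter on low counts, which left 20988 genes to be tested. The study asked how activin and HGF change colorectal cancer cells, and RNA sequencing compared 3 control libraries (NC), 3 libraries of activin-treated cells and 3 libraries of activin + HGF-treated cells. Activin A was given at 100 ng/mL for 5 days, and the activin + HGF-treated cells then received 20 ng/mL HGF for another 5 days. What the control cells received and how long they were cultured is not stated in the sources used here, and no library of cells given HGF alone was among those analysed. The activin + HGF-treated cells differed from the activin-treated cells by HGF and by 5 further days, so these cannot be told apart. All groups were 1 cell line, and no label names a change of oxygen.

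When oxygen is scarce, the hypoxia-inducible factors HIF-1 and HIF-2 escape degradation, pair with ARNT and switch on genes that carry a short DNA element, the hypoxia response element. The targets shift cells from respiration to glycolysis, export acid, call in blood vessels and recycle mitochondria. Growth factor signalling and other stresses can move many of the same genes in cells that have oxygen. SLC2A1 encodes the glucose transporter GLUT1, HK2 the hexokinase that traps glucose in the cell, PGK1 an ATP-yielding enzyme of lower glycolysis and LDHA the lactate dehydrogenase subunit that turns pyruvate into lactate. PFKFB4 sets the level of fructose 2,6-bisphosphate, an activator of phosphofructokinase. CA9 is a carbonic anhydrase at the cell surface, VEGFA and ADM (adrenomedullin) are secreted signals that act on blood vessels, BNIP3 is a mitophagy receptor and NDRG1 is a cytoplasmic protein induced by stress and differentiation.

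Each library held between 57453977 and 77016167 counts. Levels of 1 gene between libraries are given as CPM, counts set to a common depth after scaling by the trimmed mean of M-values (TMM), and levels between genes as the deposited FPKM, fragments scaled to depth and gene length. TMM factors ranged from 0.783 to 1.17, and all 3 activin + HGF-treated libraries had factors below 1. Scaling by library totals instead moved the median of all tested genes to -0.38 on the log2 scale for activin + HGF-treated against activin-treated cells and to -0.30 against control cells, so a fall in FPKM after HGF has to be read against that shift. Of 12 markers of colorectal epithelium, 6 or 7 reached a mean of 1 FPKM in each group, and 4 or 5 lay under 0.1 FPKM. The 12 summed to 556 to 876 FPKM. Of the 10 tested, 1 was called higher and 1 lower with activin. Of 6 fibroblast markers in the table, COL1A1 alone reached 1 FPKM, and the list summed to between 2.66 and 2.82 FPKM in control, 4.60 and 6.05 FPKM in activin-treated and 2.88 and 3.65 FPKM in activin + HGF-treated libraries. COL1A1 was higher with activin (log2 fold change 1.03, edgeR adjusted p = 0.00205). COL3A1, at a mean of 0.25 FPKM in control cells, was lower with activin (-6.92, edgeR adjusted p = 0.00111). Of 4 fibroblast markers tested, 1 was thus called higher and 1 lower with activin, and their part in the other results was not tested. Markers of endothelial cells summed to at most 0.16 FPKM and markers of leukocytes to at most 1.28 FPKM. In bulk RNA, fewer cells with a transcript and less transcript per cell cannot be told apart. Nothing in the sources says that the 3 libraries of a group came from separate cultures, so p-values measure the spread between these libraries, which may be technical.

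The core of the hypoxia response element reads ACGTG or GCGTG, and both strands were searched in the RefSeq promoter windows of the genes (GRCh38.p14, 250 bases before to 50 after the start). Windows were given for 8 of the 10 genes. None was given for VEGFA and NDRG1, so no promoter of these 2 genes was searched. ACGTG was found in 5 and GCGTG in 7 of the 8 genes, and all 8 had at least 1 of them, against 21.4%, 36.5% and 48.4% of all 35116 windows. The genes were chosen by name for the hypoxia response and glycolysis, and the windows were not matched for base content. These shares are therefore no test of an excess of the element. Before the start, 7 of the 8 had a match. SLC2A1 had its only match after the start. The stretches below are shown because they hold the matches of the genes whose transcripts are compared, written 5′ to 3′ on the strand of the gene, with the core in capitals. On the other strand the former core reads CACGT and the latter reads CACGC. Where matches on both strands overlap, the capitals run together as CACGTG.
HK2, chr2:74833886-74833914, plus strand: agccacggaccaCACGTcccatctcaggc
HK2, chr2:74834060-74834095, plus strand: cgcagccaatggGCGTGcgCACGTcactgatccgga
PFKFB4, chr3:48556953-48556981, minus strand: tgagttgggcatGCGTGgtcggaggccgg
PGK1, chrX:78104025-78104081, plus strand: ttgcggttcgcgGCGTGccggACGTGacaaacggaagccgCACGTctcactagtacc
LDHA, chr11:18394366-18394395, plus strand: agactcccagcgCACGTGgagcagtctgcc
LDHA, chr11:18394464-18394506, plus strand: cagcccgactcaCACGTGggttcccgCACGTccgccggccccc
CA9, chr9:35673898-35673926, plus strand: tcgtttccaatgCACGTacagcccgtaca
BNIP3, chr10:131982011-131982078, minus strand: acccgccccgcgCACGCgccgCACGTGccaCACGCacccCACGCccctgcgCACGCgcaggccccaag
ADM, chr11:10304960-10304988, plus strand: gagcaggagcgcGCGTGgctgaggaaaga
A match is a description of the letters and not a bound site. Matches after a start and at the second RefSeq start of HK2 and LDHA are not shown. Before the start, HK2, PGK1, LDHA and BNIP3 had several cores each, and PFKFB4, CA9 and ADM had 1. Neither set of genes moved alike in the comparisons that follow, and the part of the cores in any change was not tested. The starts RefSeq uses for PFKFB4 and PGK1 lay 5169 and 193509 bases from the 5′ end given in the deposited table, so these 2 windows belong to other starts than the outermost one.

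By FPKM, LDHA was the most abundant of the 10 transcripts in control cells at 120 ± 16.5 FPKM (SD, n = 3), followed by PGK1 at 80.0 ± 1.70, and CA9 was the least abundant at 0.54 ± 0.14. The 8 other genes lay between them in the order PGK1, ADM, SLC2A1, NDRG1, HK2, BNIP3, PFKFB4 and VEGFA, and in control cells the 3 libraries of each gene lay above those of the next. NDRG1 moved from the fifth place to the first with activin, at 84.4 ± 14.5 FPKM, where its libraries overlapped those of LDHA at 78.0 ± 6.13, which in turn overlapped PGK1 at 73.7 ± 10.0. After HGF, NDRG1 stood alone at the top with 80.4 ± 7.78 FPKM, while LDHA at 58.0 ± 11.8 and PGK1 at 45.3 ± 7.39 overlapped.

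Compared with control cells, activin-treated cells had higher NDRG1, VEGFA, CA9, SLC2A1, HK2 and BNIP3 and lower LDHA. By edgeR's quasi-likelihood test, 7 of the 10 genes were called at an adjusted p under 0.05 (Benjamini-Hochberg, over every gene tested), beside 18% of all tested genes. Of the 10, 6 were higher, beside 9.58% of all genes, and 1 was lower, beside 8.41%, and 4 changed by at least 1 on the log2 scale, beside 11.4% of all genes. The median log2 fold change of the 10 genes was 0.75, against 0.02 over all tested genes. In CPM the activin-treated and control libraries did not overlap in 8 of the 10 genes, beside 42.2% of all genes.

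After HGF, CA9 and PFKFB4 were lower and ADM was higher than in activin-treated cells, and the other 7 genes did not pass the test. The 3 called genes stand beside 12.9% of all tested genes, the 1 higher gene beside 7.41% and the 2 lower genes beside 5.45%. All 3 changed by at least 1 on the log2 scale, beside 8.09% of all genes. The median of the 10 genes was -0.27, against -0.04 over all genes, and the groups did not overlap in 5 genes, beside 32.7% of all genes. This comparison moved most with the scaling. With library totals 7 genes were called, SLC2A1, HK2, PGK1 and BNIP3 being the additional ones, all lower, and with limma on log2(FPKM + 0.1) the count was also 7. Over all tested genes, 3108 of 20988 were called with library totals and 3166 of 15162 with that limma fit.

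Activin + HGF-treated cells compared with control cells showed higher NDRG1, VEGFA, ADM and HK2 and lower PFKFB4, LDHA and PGK1. These 7 calls stand beside 31.4% of all tested genes, the 4 higher genes beside 16.4% and the 3 lower genes beside 15%. At least 1 on the log2 scale was reached by 4 of them, beside 21.5% of all genes, the median of the 10 genes was 0.36 against -0.03, and the groups did not overlap in 9 genes, beside 53.8%. The 3 comparisons share their groups of libraries and are not independent of each other.

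**Figure D1:**
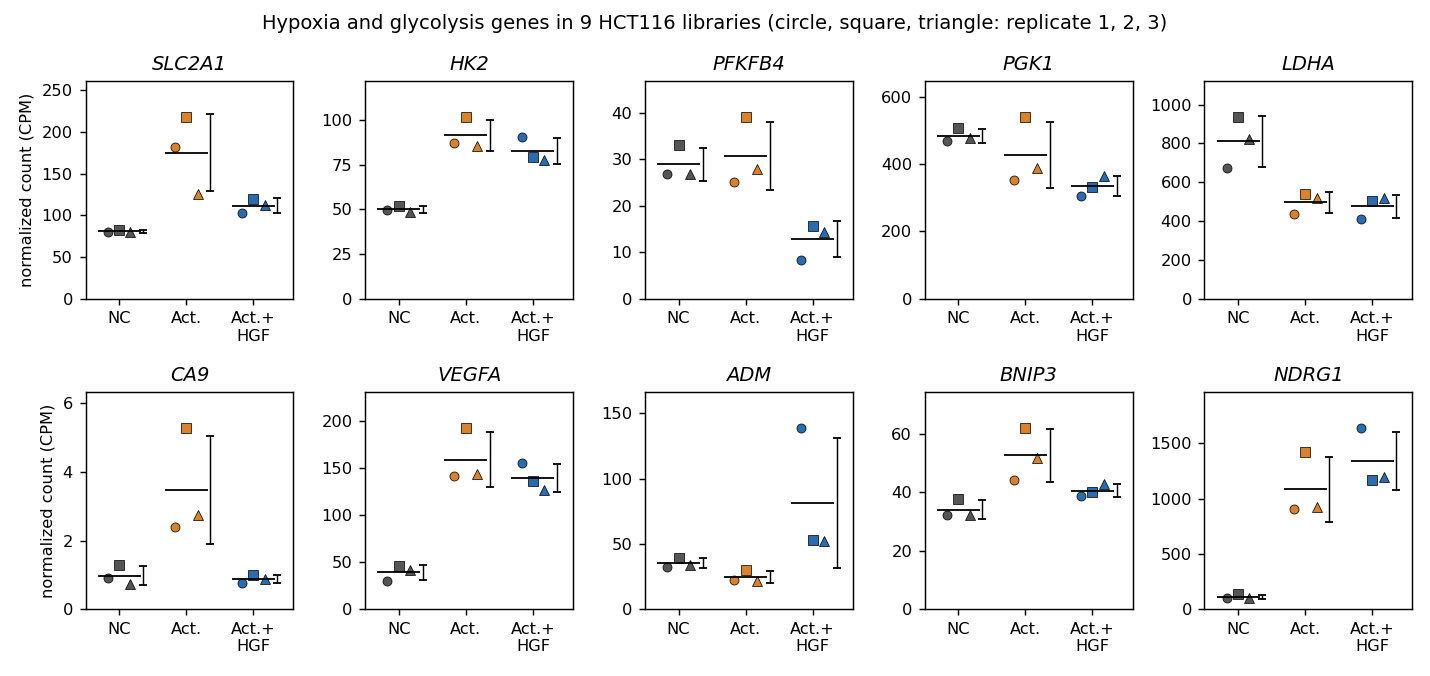
Normalized count (CPM, TMM-scaled, linear axes from 0) of the 10 genes in the 9 HCT116 libraries, by group, with circles, squares and triangles for replicates 1, 2 and 3, a line at the mean and a bar for 1 SD on either side (n = 3). NDRG1 and VEGFA were higher in all treated libraries than in any control library, PFKFB4 was lowest in the activin + HGF-treated libraries, and 1 activin + HGF-treated library held far more ADM, 139 CPM, than the other two.

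The transcripts of SLC2A1 and HK2, which act in the uptake and trapping of glucose, rose with activin. Glucose uptake itself was not measured. SLC2A1 (ENSG00000117394, chr1:42925353-42958868, minus strand) read 79.9, 82.4 and 79.9 CPM in control cells, 182, 218 and 126 CPM in activin-treated cells and 102, 120 and 113 CPM in activin + HGF-treated cells. The activin-treated libraries varied more among themselves (coefficient of variation 26.4%) than the control libraries (1.78%), and all of them exceeded every library of the other groups. The increase with activin was 2.17-fold (log2 fold change 1.12, SE 0.20, edgeR adjusted p = 0.00413). After HGF the estimate was -0.65 (95% interval -1.09 to -0.21, edgeR adjusted p = 0.0565), just outside the threshold, and activin + HGF-treated cells differed from control cells by 0.47 (95% interval 0.03 to 0.91, edgeR adjusted p = 0.0977). Without the activin-treated library with the lowest level, replicate 3, the fall after HGF was -0.92 and passed the test (edgeR adjusted p = 0.0231).

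HK2 (ENSG00000159399, chr2:74834127-74893359, plus strand) read 49.5, 52.1 and 48.7 CPM in control cells, 87.2, 102 and 85.7 CPM with activin and 90.8, 79.5 and 77.6 CPM with activin + HGF. The treated groups overlapped each other and lay above all control libraries. HK2 rose 1.83-fold with activin (log2 fold change 0.87, SE 0.15, edgeR adjusted p = 0.00357) and was still 1.65-fold above control after HGF (0.72, SE 0.15, edgeR adjusted p = 0.00534). The difference after HGF was -0.15, with a 95% interval of -0.48 to 0.19.

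PFKFB4 (ENSG00000114268, chr3:48517684-48561972, minus strand) followed another course. It read 26.8, 33.0 and 26.9 CPM in control cells and 25.2, 39.0 and 28.0 CPM in activin-treated cells, and the groups overlapped. In activin + HGF-treated cells it read 8.43, 15.6 and 14.4 CPM, below every other library. The fall was 2.39-fold against activin-treated cells (log2 fold change -1.26, SE 0.26, edgeR adjusted p = 0.0157) and 2.25-fold against control cells (-1.17, SE 0.26, edgeR adjusted p = 0.00767). In the fit of only the activin-treated and activin + HGF-treated libraries the first of these just missed the threshold at an adjusted p of 0.0507.

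PGK1 and LDHA, enzymes of the lower part of the pathway, passed no test for an increase. LDHA (ENSG00000134333, chr11:18394560-18408425, plus strand) read 676, 935 and 821 CPM in control cells, 436, 540 and 516 CPM with activin and 409, 502 and 516 CPM with activin + HGF. Every control library exceeded every treated library. LDHA was 1.63-fold lower with activin (log2 fold change -0.70, SE 0.18, edgeR adjusted p = 0.0202) and 1.70-fold lower with activin + HGF (-0.77, SE 0.18, edgeR adjusted p = 0.00833). The fall with activin lost its call when control replicate 2 or 3 or activin replicate 1 or 3 was left out, with values of -0.54, -0.70, -0.59 and -0.69. Without any 1 library, the fall with activin + HGF stayed past the threshold. The 5 LDHA pseudogenes in the table together held 0.95% of the LDHA counts.

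PGK1 (ENSG00000102144, chrX:77910739-78129295, plus strand) read 469, 508 and 478 CPM in control cells, 354, 540 and 387 CPM with activin and 307, 333 and 366 CPM with activin + HGF. The activin-treated libraries spread across both other groups. The estimate with activin was -0.18 (95% interval -0.58 to 0.22), and that of HGF after activin was -0.35 (95% interval -0.75 to 0.05). Against control, PGK1 was 1.45-fold lower in activin + HGF-treated cells (log2 fold change -0.53, SE 0.18, edgeR adjusted p = 0.046). The span of PGK1 in the table covers ATP7A and PGAM4, which held at most 1218 and 1413 counts, beside at least 16709 for PGK1. The call lay at the threshold. It was lost when any 1 of the 6 libraries was left out, with values of -0.61 to -0.47, and with the replicate number as a block (edgeR adjusted p = 0.051).

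CA9 (ENSG00000107159, chr9:35673918-35681159, plus strand) was the only one of the 10 genes called in both steps, higher with activin and lower after HGF. Its deposited counts, which may not be numbers of single fragments since multiples of 4 are frequent among low counts, were few: 55, 86 and 60 in control libraries, 176, 329 and 207 in activin-treated libraries and 41, 68 and 57 in activin + HGF-treated libraries. In CPM these were 0.90, 1.28 and 0.75, then 2.39, 5.27 and 2.75, then 0.75, 0.99 and 0.89. The activin-treated libraries stood apart from both other groups, which overlapped. CA9 rose 3.56-fold with activin (log2 fold change 1.83, SE 0.40, edgeR adjusted p = 0.0108), fell 3.95-fold after HGF (-1.98, SE 0.40, edgeR adjusted p = 0.0143) and ended at -0.15 against control (95% interval -1.02 to 0.72). Of all tested genes, 206, or 0.982%, were called higher with activin and lower after HGF. Without control replicate 3 the rise with activin missed the threshold (log2 fold change 1.67, edgeR adjusted p = 0.0583).

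Part of the CA9 signal cannot be assigned to a strand. In the GENCODE annotation 643 of the 1670 exon bases of CA9, 38.5%, are also exon bases of ARHGEF39 on the opposite strand, and the strand setting of the counting is not given in the sources used here. ARHGEF39 read 21.9, 16.7 and 23.6 CPM in control cells, 10.4, 12.8 and 12.3 CPM with activin and 1.78, 4.41 and 4.49 CPM with activin + HGF. It fell in both comparisons with the activin + HGF-treated cells (log2 fold change -1.73 against activin-treated and -2.54 against control cells, edgeR adjusted p = 0.0114 and 0.000475). With activin its estimate was -0.81, opposite in sign to that of CA9 (edgeR adjusted p = 0.111). Its part in the fall of CA9 after HGF was not tested.

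The vascular signals VEGFA and ADM took different courses. VEGFA (ENSG00000112715, chr6:43770184-43786487, plus strand) read 30.5, 46.2 and 41.8 CPM in control cells, 141, 193 and 144 CPM with activin and 156, 137 and 126 CPM with activin + HGF. The lowest treated library, at 126 CPM, lay far above the highest control library, at 46.2 CPM, and the treated groups overlapped. VEGFA rose 4.03-fold with activin (log2 fold change 2.01, SE 0.21, edgeR adjusted p = 0.000235) and was 3.53-fold above control after HGF (1.82, SE 0.21, edgeR adjusted p = 0.00021). The change after HGF was -0.19 (95% interval -0.64 to 0.26).

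ADM (ENSG00000148926, chr11:10305073-10307397, plus strand) read 32.5, 39.6 and 33.6 CPM in control cells, 22.3, 29.9 and 21.7 CPM with activin and 139, 53.2 and 52.4 CPM with activin + HGF. The activin-treated libraries all lay below the control libraries, although the difference of -0.52 did not pass the test (95% interval -1.28 to 0.25, edgeR adjusted p = 0.357). With HGF after activin, ADM was 3.31-fold higher (log2 fold change 1.72, SE 0.36, edgeR adjusted p = 0.0147), and it was 2.31-fold above control (1.21, SE 0.35, edgeR adjusted p = 0.0246). The library labelled activin + HGF replicate 1 held 2.61 times the ADM of the other two, a deviation exceeded by 4.19% of tested genes, and the same library had the lowest PFKFB4. This library stood apart in many genes. In it 10.4% of tested genes lay more than 1 on the log2 scale from the other 2, beside 3.09% and 4.64% for replicates 2 and 3. Without replicate 1 of the activin + HGF-treated libraries the 2 values of ADM were 1.10 and 0.59, and both stayed past the threshold (edgeR adjusted p = 0.0144 and 0.0485). The rise against activin-treated cells lost its call without activin replicate 1 or 3 (1.59 and 1.57) and in the fit of only those 2 groups (1.68, edgeR adjusted p = 0.0509). The rise against control cells lost it without control replicate 1, 2 or 3 (1.11, 1.26 and 1.17) and with limma on log2(FPKM + 0.1) or log2(FPKM + 1) (0.75 and 0.72, limma adjusted p = 0.0561 and 0.0539).

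BNIP3 (ENSG00000176171, chr10:131966455-131982013, minus strand) read 32.4, 37.7 and 32.1 CPM in control cells, 44.2, 61.9 and 51.6 CPM with activin and 38.6, 40.2 and 42.8 CPM with activin + HGF. In CPM the 3 groups did not overlap, with activin highest and control lowest. In FPKM the activin + HGF-treated libraries, at 4.75 to 6.10, overlapped the control libraries, at 5.39 to 6.21. The increase with activin was 1.54-fold (log2 fold change 0.63, SE 0.17, edgeR adjusted p = 0.0318). It lost its call without control replicate 1 or 3 (0.63 and 0.58) and when no filter on low counts was used (edgeR adjusted p = 0.056). The change after HGF was -0.38 (95% interval -0.76 to 0.01), and the difference from control was then 0.25 (95% interval -0.13 to 0.64). The 8 BNIP3 pseudogenes in the table held 1.04% of its counts.

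NDRG1 (ENSG00000104419) had the largest change of the 10 genes in the comparisons with control. It read 102, 136 and 107 CPM in control cells, 904, 1419 and 925 CPM with activin and 1637, 1170 and 1198 CPM with activin + HGF. The treated groups overlapped each other far above the control libraries. NDRG1 rose 9.42-fold with activin (log2 fold change 3.24, SE 0.24, edgeR adjusted p = 3.81e-05) and was 11.6-fold above control after HGF (3.54, SE 0.25, edgeR adjusted p = 1.93e-05). The change after HGF was 0.30 (95% interval -0.19 to 0.80) with TMM scaling and -0.04 with library totals. Leaving out 1 library at a time, the rise with activin ranged from 2.99 to 3.42.

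**Figure D2:**
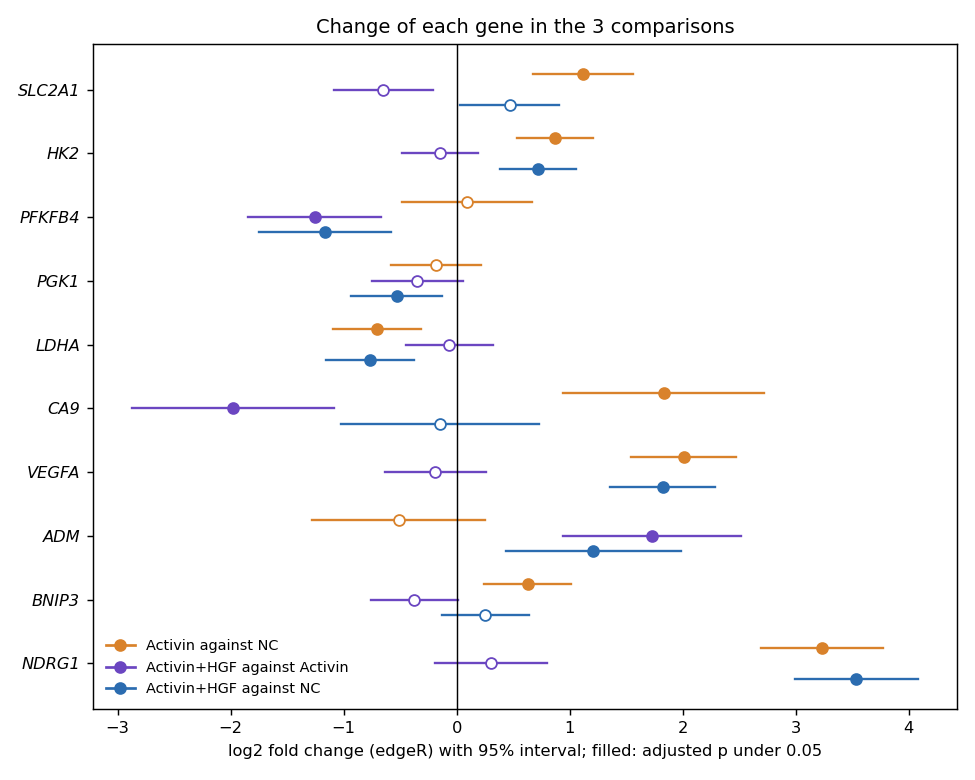
Log2 fold change of the 10 genes by edgeR with its 95% interval, in activin-treated against control cells, activin + HGF-treated against activin-treated cells and activin + HGF-treated against control cells, with filled points for an adjusted p under 0.05. NDRG1 and VEGFA lie far to the right in both comparisons with control, CA9 lies at 1.83 with activin and at -1.98 after HGF, and LDHA lies left of 0 in both comparisons with control.

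The other enzymes of glycolysis were mostly below the threshold. Of 22 tested genes of the list of glycolytic enzymes, which includes HK2, PGK1 and LDHA, 2 rose and 3 fell with activin and 17 were not called, a called share of 22.7%, near the 18% of all tested genes. HKDC1, a hexokinase-like gene, rose from 0.17 to 3.68 FPKM (log2 fold change 4.34, SE 0.31, edgeR adjusted p = 2.63e-05). LDHB, the other main lactate dehydrogenase subunit, fell from 335 to 150 FPKM (-1.25, SE 0.14, edgeR adjusted p = 0.000356). PGAM1, the phosphoglycerate mutase, fell from 202 to 97.6 FPKM (-1.12, SE 0.19, edgeR adjusted p = 0.00336). The median of the 22 genes was -0.20, against 0.02 over all genes. Without activin replicate 2 the number of calls was 9 in place of 5. In activin + HGF-treated against control cells 3 rose and 5 fell, 36.4% beside 31.4% of all genes, with HKDC1 at 3.38 and PGAM1 at -1.18 (edgeR adjusted p = 5.33e-05 and 0.00144). ENO3, a muscle enolase, was lower by -0.77 (edgeR adjusted p = 0.0127) and BPGM, which makes 2,3-bisphosphoglycerate, was higher by 0.88 (edgeR adjusted p = 0.0291).

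**Figure D3:**
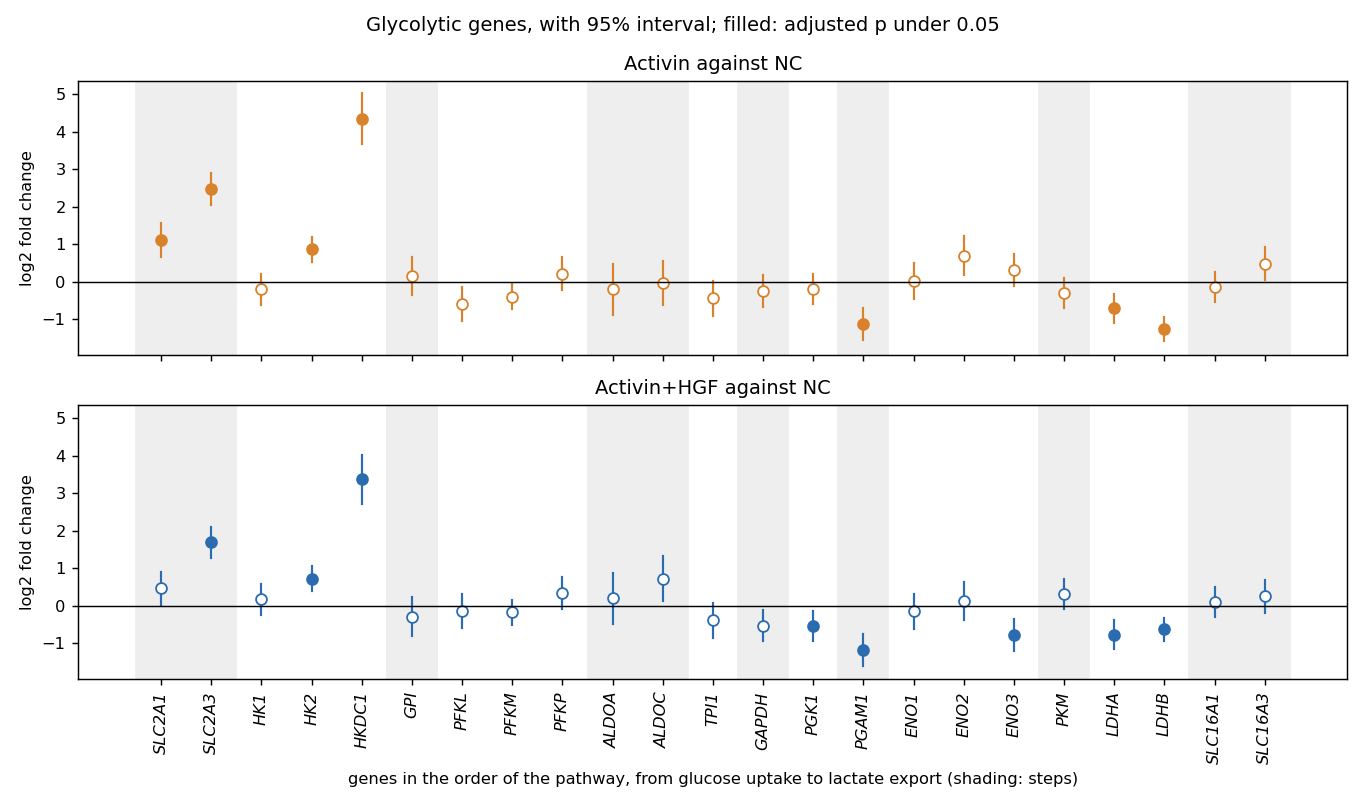
Log2 fold change by edgeR with its 95% interval for glucose transporters, glycolytic enzymes and lactate transporters in the order of the pathway, for activin-treated against control cells (top) and activin + HGF-treated against control cells (bottom), with filled points for an adjusted p under 0.05 and shading to separate steps. The called increases are transporters and hexokinases at the left (SLC2A3 2.48, HKDC1 4.34 with activin), and the called decreases are PGAM1, LDHA and LDHB in both panels, joined by PGK1 and ENO3 in the bottom panel.

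Of 11 tested transporters of glucose and lactate, 2 rose with activin and none fell, and this share of 18.2% is that of all tested genes, 18%. Beside SLC2A1 this was SLC2A3, the glucose transporter GLUT3, from a mean of 1.003 to 6.003 FPKM (log2 fold change 2.48, SE 0.19, edgeR adjusted p = 4.19e-05). After HGF SLC2A3 fell by 0.79 on the log2 scale (edgeR adjusted p = 0.0213) while BSG, the chaperone of lactate transporters, rose by 0.79 (edgeR adjusted p = 0.0273). Against control, SLC2A3 stood at 1.69 and BSG at 1.33 in activin + HGF-treated cells (edgeR adjusted p = 0.000159 and 0.000844), 4 of the 11 transporters being higher and 1, SLC2A6, lower at -1.68 (edgeR adjusted p = 0.00259). These 5 are 45.5% of the list, beside 31.4% of all genes. That count of 5 was 3 without control replicate 2, and the 2 calls after HGF ranged from 0 to 2 when 1 library was left out.

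Of 20 genes that switch pyruvate between lactate and respiration or set glycolytic flux, 2 rose and 4 fell with activin, 30% beside 18% of all genes. The mitochondrial PCK2 rose by 1.93 (edgeR adjusted p = 0.00699) and PDK1, which inhibits pyruvate dehydrogenase, by 0.97 (edgeR adjusted p = 0.0152). PDK2, a more abundant kinase with the same action, fell from 5.45 to 2.99 FPKM (-0.93, edgeR adjusted p = 0.0231). PDHA1 and DLAT, subunits of pyruvate dehydrogenase, both fell, by 1.02 on the log2 scale (edgeR adjusted p = 0.00203 and 0.0272). The 6 calls were 3, 2 and 2 without control replicate 1, control replicate 2 and activin replicate 1. After HGF PDK1 fell by 0.81 (edgeR adjusted p = 0.0427), while PDK4, another inhibitory kinase of the complex, rose by 1.15 and PDP1, the opposing phosphatase, by 1.37 (edgeR adjusted p = 0.0154 and 0.0153).

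The transcript of HIF1A, the HIF-1α subunit, did not pass the test in any comparison. Its level was 23.3 ± 4.45, 23.8 ± 9.44 and 20.0 ± 2.82 FPKM in control, activin-treated and activin + HGF-treated cells (SD, n = 3), and its log2 fold changes were -0.08 (95% interval -0.63 to 0.48) with activin and 0.15 (-0.40 to 0.71) after HGF. HIF-1α is known to be set mainly by protein stability, which was not measured. EPAS1, which encodes HIF-2α, was 0.40 higher with activin (edgeR adjusted p = 0.0858), rose by 0.61 after HGF (edgeR adjusted p = 0.0259) and was 2.01-fold above control in activin + HGF-treated cells (log2 fold change 1.00, SE 0.15, edgeR adjusted p = 0.000793). ARNT, their partner, stayed between -0.22 and 0.11 in the 3 comparisons with no call.

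Among the genes that turn HIF over, VHL, the ubiquitin ligase subunit that binds hydroxylated HIF, rose from 6.82 to 14.1 FPKM with activin (log2 fold change 0.97, SE 0.17, edgeR adjusted p = 0.00374) and fell by 0.64 after HGF (edgeR adjusted p = 0.0356). HIF1AN, the asparagine hydroxylase that blocks HIF activity, fell after HGF by 1.23 and was lower than control by -1.61 (edgeR adjusted p = 0.019 and 0.0019). The oxygen-sensing prolyl hydroxylases EGLN1 and EGLN3 were at -0.32 and 0.97 with activin and were not called (edgeR adjusted p = 0.222 and 0.112). EGLN3 is itself known as a HIF target. Of 20 genes of this list, 2 rose and 1 fell with activin (15% beside 18% of all genes), 3 and 3 after HGF (30% beside 12.9%), and 5 and 2 against control after both (35% beside 31.4%). The first count, 3, was 1 when any 1 control library was left out. The 6 calls after HGF were 2 without activin replicate 1 or 3 and ranged from 2 to 8, and the 7 against control were 4 without control replicate 1 or 3 and ranged from 4 to 6.

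A list of 44 other genes known to respond to hypoxia, none of them among the 10, rose more often than it fell with activin. Of these 17 were called higher, 1 lower and 26 not called. The called share was 40.9%, beside 18% of all tested genes, and the median was 0.52 against 0.02. The number of calls ranged from 13 to 19 when 1 library was left out. The list was chosen with earlier results of these data known, so its share is no independent test. DDIT4, an inhibitor of mTORC1, rose from 38.8 to 409 FPKM (3.33, SE 0.36, edgeR adjusted p = 0.000288). ANGPTL4, an inhibitor of lipoprotein lipase, and STC2, a secreted glycoprotein, rose by 2.85 and 2.77 (edgeR adjusted p = 0.000481 and 6.59e-06). Some genes are on this list as well as on those above, among them SLC2A3, PDK1, PFKFB3, EGLN1 and EGLN3. The 26 genes without a call include PFKFB3, EGLN1, KDM3A and ERO1A.

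After HGF 4 of these 44 genes rose and 4 fell, 18.2% beside 12.9% of all genes, and this count was unstable. It was 2, 14 and 2 without activin replicates 1, 2 and 3, and 4 and 5 without activin + HGF replicates 2 and 3. IGFBP3, a carrier of insulin-like growth factors, rose by 1.82 and the cytokine MIF by 1.17, and ANKRD37 fell by 1.25 (edgeR adjusted p = 0.00563, 0.0123 and 0.019). Against control, 20 were higher and 4 lower in activin + HGF-treated cells, 54.5% beside 31.4% of all genes, with a median of 0.69. ANGPTL4 at 3.56, DDIT4 at 3.08 and STC2 at 2.96 were among the higher ones (edgeR adjusted p = 9.99e-05, 0.000227 and 5.13e-06).

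**Figure D4:**
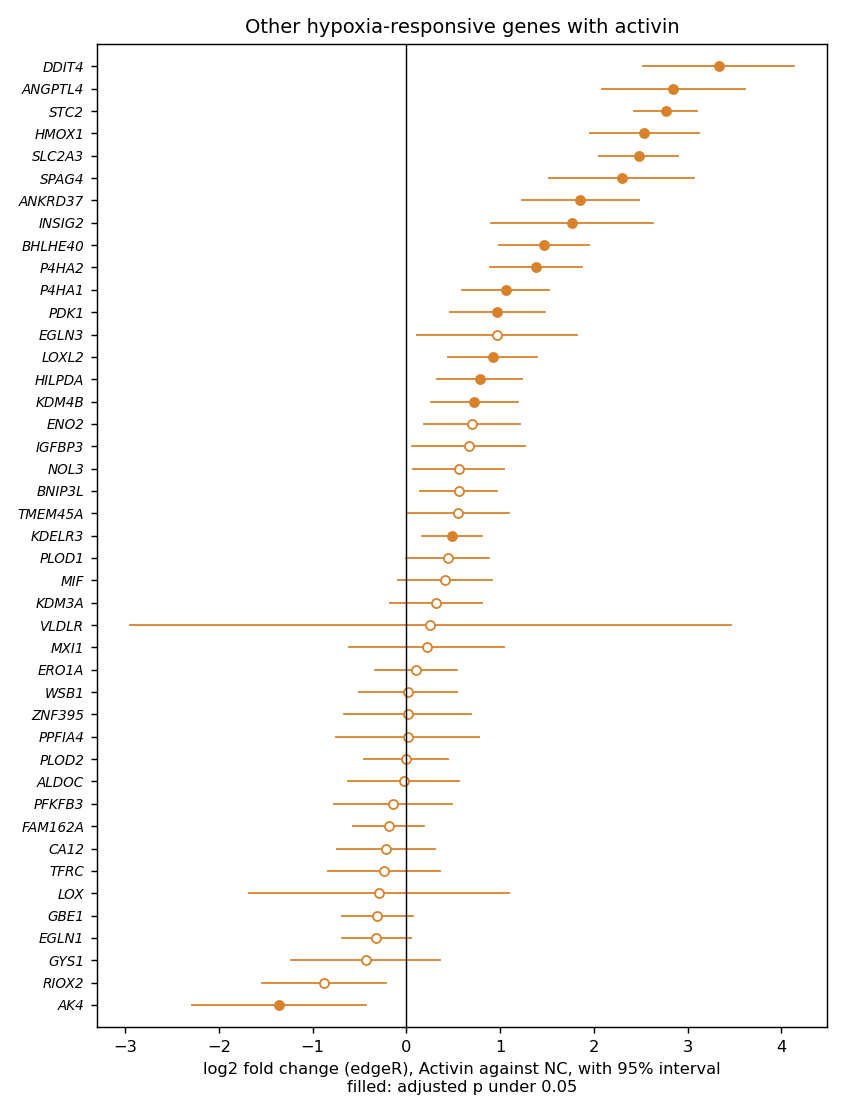
Log2 fold change by edgeR with its 95% interval for 43 of the 44 other hypoxia-responsive genes in activin-treated against control cells, in the order of the estimate, with filled points for an adjusted p under 0.05. The 16 called increases shown run from DDIT4 at 3.33 downwards, and AK4 at the bottom is the 1 called decrease.

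Around VEGFA and ADM, 3 of 14 tested angiogenic ligands and receptors rose with activin and 1 fell (28.6% called beside 18% of all genes), and 7 were higher and 1 lower than control after both treatments (57.1% beside 31.4%). These counts include VEGFA and ADM themselves. NRP1, a co-receptor for VEGF, rose by 3.16 with activin but reached only 1.89 FPKM (edgeR adjusted p = 0.00011). ADM2, a relative of adrenomedullin, rose by 1.78 (edgeR adjusted p = 0.000572), and RAMP1, a subunit of receptors for this peptide family, fell by 1.31 (edgeR adjusted p = 0.00955). PGF, the placental growth factor, was 1.34 above control after both treatments (edgeR adjusted p = 0.00188).

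Around CA9, 3 of 10 tested genes of pH regulation rose with activin and none fell, 30% beside 18% of all genes, with CA9 itself among the 3. Beside CA9 they included SLC4A7, a sodium bicarbonate cotransporter, at 1.21 (edgeR adjusted p = 0.00878). SLC4A7 was still at 1.15 above control after HGF (edgeR adjusted p = 0.00686). Among 14 genes of the NDRG family and of mitophagy, NDRG1 and BNIP3 were the 2 that rose with activin and NDRG2 fell by 0.85 (edgeR adjusted p = 0.0195), 21.4% called beside 18% of all genes. The 3 calls were 1 without control replicate 1 or 3 and 5 without activin replicate 2. PINK1, a kinase that marks damaged mitochondria, was at 1.70 and BNIP1 at 1.10 above control after both treatments (edgeR adjusted p = 0.000769 and 0.00812).

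The tested gene whose profile over the 9 libraries lay nearest to that of each of the 10 genes was named by the Euclidean distance of centred log2 CPM, among 12081 genes (12082 for CA9) with a mean of at least 1 FPKM. NDRG1 lay nearest to IRF7, an interferon regulatory factor, at a distance of 0.54, which was at 3.42 with activin and 0.13 after HGF. ADM lay nearest to TRIB1, a pseudokinase, at 0.61, with -0.45 and 1.57, and CA9 to UNC13D, a factor of granule release, at 0.66, with 1.45 and -1.36. For HK2 it was MICALL2 at 0.23, for PFKFB4 ARHGEF11 at 0.31, for LDHA MEA1 at 0.26, for PGK1 ZDHHC5 at 0.23 and for BNIP3 PCBP4 at 0.24. SLC2A1 lay nearest to the pseudogene PKD1P5 and VEGFA to the antisense gene MIF-AS1, whose counts are uncertain since they can share reads with their partners. The distances describe 9 libraries in 3 groups and say nothing of shared control.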

How the data were processed

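The authors depleted ribosomal RNA and sequenced paired-end libraries. The submitters' processing notes name cutadapt 1.9, HISAT2 2.0.4 and StringTie 1.3.4d. The counting program, its strand setting and the genome build are not given in the sources used here. The authors deposited counts per gene, without normalization, and FPKM per gene, normalized by them to depth and length. Counts were tested with edgeR 4.0.16 in R 4.3.3 (filterByExpr, TMM, glmQLFit, glmQLFTest) on the 9 libraries together, each group having its own mean and the replicate number being left out. The threshold for a call was 0.05 after Benjamini-Hochberg adjustment. Named genes were all 10 genes and, per list and comparison, up to 4 called genes with the largest change and at least 1 FPKM in the higher group, the main HIF genes, and the nearest profile to each of the 10. Some genes that meet these criteria are not reported here. PFKFB3, KDM3A, ERO1A, AK4, PDK2, COL1A1 and COL3A1 were picked once their values were known. The genes and lists were chosen with earlier results of these data known. No clear pairing of libraries by replicate number was seen (9 correlations from -0.10 to 0.20, 1 over 0.1), but 3 libraries a group cannot exclude it. Among counts of 1 to 40, 34.1% to 36.1% were multiples of 4, so the deposited counts and library totals may be larger than the numbers of fragments sequenced, and counts divided by 4 were tried. The alternatives also used DESeq2 1.42.0 and limma 3.58.1. The test was tried on simulated data. Figures used Python 3.11.15 and matplotlib 3.10.9.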

Additional observations from a re-analysis of the deposited data

How the results depend on the processing

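Of 450 values of the 10 genes under alternative settings, 399 kept direction and side of the threshold, 25 lost a call, 17 gained one and 9 changed sign. With activin, the 7 called genes were 4 when a log2 fold change of 1 or more in size was also required, 4 at an adjusted p under 0.01 and 4 to 7 when 1 library was left out, 4 without control replicate 3. After HGF, the 3 called genes were 7 with library totals, 7 with limma on log2(FPKM + 0.1), 8 with limma on log2(FPKM + 1), 1 with only the 2 groups compared and 2 to 3 when 1 library was left out. Over all tested genes, the first 4 of these settings called 3108 of 20988, 3166 of 15162, 3355 of 15162 and 714 of 19594. At an adjusted p under 0.01 by edgeR none, 0, was called, with 4 of the 10 at an unadjusted p under 0.05 and 4 called by DESeq2 at an adjusted p under 0.05. Against control after both treatments, the 7 were 4 with a log2 fold change of at least 1 and 5 to 6 when 1 library was left out.

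The sign changed only in values that were not called. When 1 library was left out, PFKFB4 with activin ranged from -0.12 (without activin replicate 2) to 0.24, LDHA after HGF from -0.22 to 0.038 (without activin + HGF replicate 1), and CA9 against control after both treatments from -0.31 to 0.058 (without control replicate 2). NDRG1 after HGF was -0.037 with library totals and -0.062 and -0.061 with limma on FPKM at the smaller and the larger pseudocount, and BNIP3 against control after both was -0.012, -0.043 and -0.037 likewise. Under those 3 settings the median over all tested genes was also below 0. It was -0.38, -0.31 and -0.22 after HGF and -0.30, -0.29 and -0.19 against control. The cause of the sign changes was not tested. With a block for the replicate number, the counts were 7, 3 and 6, the only loss being PGK1. Counts over all genes moved more: after HGF 2698 genes were called, 714 with only the 2 groups compared, 4540 with DESeq2 and 686 to 4533 when 1 library was left out, and with activin 3776 and 2021 to 4729. The number of libraries, 3 a group, limits the precision, and the 41 to 329 counts of CA9 limit its values.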
